A study of Mus musculus with 6 samples.

Results

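The genes described here are 39 genes of skeletal muscle fibers, followed in each of 6 mouse melanomas as a measure of muscle in the tumor samples. They were taken by symbol from a given list, and all 39 were present among the 55536 gene rows of the count files. Most encode parts of the sarcomere. The others serve calcium handling, energy supply and oxygen storage of the fiber (Atp2a1, Ryr1, Casq1, Pvalb, Cacna1s, Trdn, Ckm, Mb, Eno3 and Pygm).

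The tumors grew under the skin of C57BL/6J mice from about 100000 injected cells of B16, a melanoma line of the C57BL/6 strain, and were taken on day 13. One group of 3 tumors came from B16 cells with a vector control and the other 3 from ATM KO B16 cells, in which ATM, a kinase of the DNA damage response, was knocked out. Each tumor gave 1 library of total RNA. The age and sex of the mice, the way ATM was disrupted, and the clonality of the knockout cells are not stated by the labels. Nor do the labels say that each tumor came from a separate mouse, so the p-values measure only the spread between these 6 tumors. No label mentions muscle.

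A sarcomere is the contractile unit of striated muscle, in which thick filaments of myosin pull along thin filaments of actin. Calcium released from the sarcoplasmic reticulum binds troponin C, and tropomyosin then uncovers the sites on actin that myosin binds. Fast and slow fibers use separate genes for many of these proteins, so the transcripts carry the fiber type as well as the amount of muscle. In the mouse a thin sheet of skeletal muscle, the panniculus carnosus, lies under the skin, where such tumors are placed.

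The promoters of 4 of the genes are shown because their transcripts followed 2 patterns. Acta1, the actin of skeletal muscle, and Myh4, the myosin heavy chain of the fastest fibers, rose and fell across tumors with most of the 39 genes, whereas Myh2 and Myh7, the heavy chains of fast oxidative and of slow fibers, were highest in ATM knockout tumors 2 and 3. Each sequence runs from 250 bases before to 50 bases after the start of the gene (RefSeq, GRCm38.p6). Capitals mark CAGCTG and CACCTG, forms of the E-box that myogenic factors bind, CTANNNNTAG, the outline of a MEF2 site, and TATAAA, each searched on both strands (CAGGTG and TTTATA being the other strand of CACCTG and TATAAA). For Myh7 the first of 2 listed starts is shown.
Acta1 (chr8:123894726-123895025, minus strand): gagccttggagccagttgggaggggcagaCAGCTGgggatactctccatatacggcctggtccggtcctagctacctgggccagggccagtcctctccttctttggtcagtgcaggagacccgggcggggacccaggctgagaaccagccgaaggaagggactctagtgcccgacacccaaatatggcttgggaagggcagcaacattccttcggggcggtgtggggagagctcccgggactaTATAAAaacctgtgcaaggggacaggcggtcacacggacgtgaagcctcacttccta
Myh4 (chr11:67237562-67237861, plus strand): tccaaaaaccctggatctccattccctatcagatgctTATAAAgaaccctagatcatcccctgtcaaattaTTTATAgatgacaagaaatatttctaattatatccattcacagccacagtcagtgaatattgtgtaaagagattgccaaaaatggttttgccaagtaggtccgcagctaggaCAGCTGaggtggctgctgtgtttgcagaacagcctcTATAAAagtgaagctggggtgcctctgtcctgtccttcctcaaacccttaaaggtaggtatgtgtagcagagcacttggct
Myh2 (chr11:67170777-67171076, plus strand): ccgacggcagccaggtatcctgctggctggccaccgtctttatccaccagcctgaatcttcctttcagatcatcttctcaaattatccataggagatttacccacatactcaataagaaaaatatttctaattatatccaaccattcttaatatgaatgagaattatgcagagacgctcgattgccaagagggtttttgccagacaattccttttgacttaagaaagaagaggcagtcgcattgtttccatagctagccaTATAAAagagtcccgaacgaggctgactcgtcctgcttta
Myh7 (chr14:54994577-54994876, minus strand): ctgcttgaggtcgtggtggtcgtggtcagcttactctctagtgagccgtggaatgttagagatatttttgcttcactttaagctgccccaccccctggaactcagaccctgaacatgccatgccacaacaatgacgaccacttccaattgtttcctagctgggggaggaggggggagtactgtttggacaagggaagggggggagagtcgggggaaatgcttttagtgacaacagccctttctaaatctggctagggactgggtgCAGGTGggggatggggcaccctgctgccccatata
Among the shown windows CAGCTG occurs in Acta1 and Myh4, CACCTG (as CAGGTG) in Myh7, and TATAAA in Acta1, Myh4 and Myh2. The matches in Myh7 and Myh2 lie after the listed start, and those in Acta1 and Myh4 before it. Promoters were matched for 30 of the 39 genes, and the 9 without an entry were Actn3, Mylk2, Myot, Myoz1, Neb, Tcap, Tnni2, Tnnt3 and Trdn. CAGCTG was found in 16 of the 30 (53.3%) and in 18.3% of all 27025 genes with a promoter of this length. The other motifs were found in 8 (26.7%, CACCTG), 4 (13.3%, CTANNNNTAG) and 7 (23.3%, TATAAA) of the 30, and in 22.6%, 4.23% and 15.7% of all genes. A match describes the letters of the window and shows no binding.

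Each library held 22101124 to 29037715 counts on genes, and 15696 genes passed the filter on low counts. Libraries of 1 group differed by more than counting noise (chi-square over its degrees of freedom, 21.5 to 81.5). Levels below are CPM, counts scaled to a common library size (TMM, the trimmed mean of M-values), and folds are ATM knockout over vector control from edgeR's quasi-likelihood test, adjusted by Benjamini and Hochberg over all genes tested. Atm itself was not used as a check of the groups, since the disrupted stretch is not known.

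Muscle transcripts differed from tumor to tumor far more than between the groups. The 39 genes together took 0.00929%, 0.0168% and 1.27% of all gene counts in vector control tumors 1, 2 and 3. They took 0.476%, 1.30% and 0.121% in ATM knockout tumors 1, 2 and 3. Vector control tumors 1 and 2 were thus low, and vector control tumor 3 was as high as ATM knockout tumor 2. The shares rest on 2194, 3705, 307710, 112651, 358984 and 35257 counts, and counting error is small beside the differences (95% Wilson intervals 0.00891% to 0.00969% in vector control tumor 1 and 1.2950% to 1.3034% in ATM knockout tumor 2). In CPM the sums of the control tumors were 97.0, 169 and 12737, and those of the knockout tumors 4620, 12850 and 1206. The highest sum was 132 times the lowest. Group means were 4335 ± 7277 and 6225 ± 5985 CPM (SD, n = 3 per group), the SD of the control group exceeding its mean, and the knockout values lay within the control range except that of tumor 2, which lay just above it. In bulk tissue fewer muscle fibers and less RNA per fiber cannot be told apart.

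**Figure D1:**
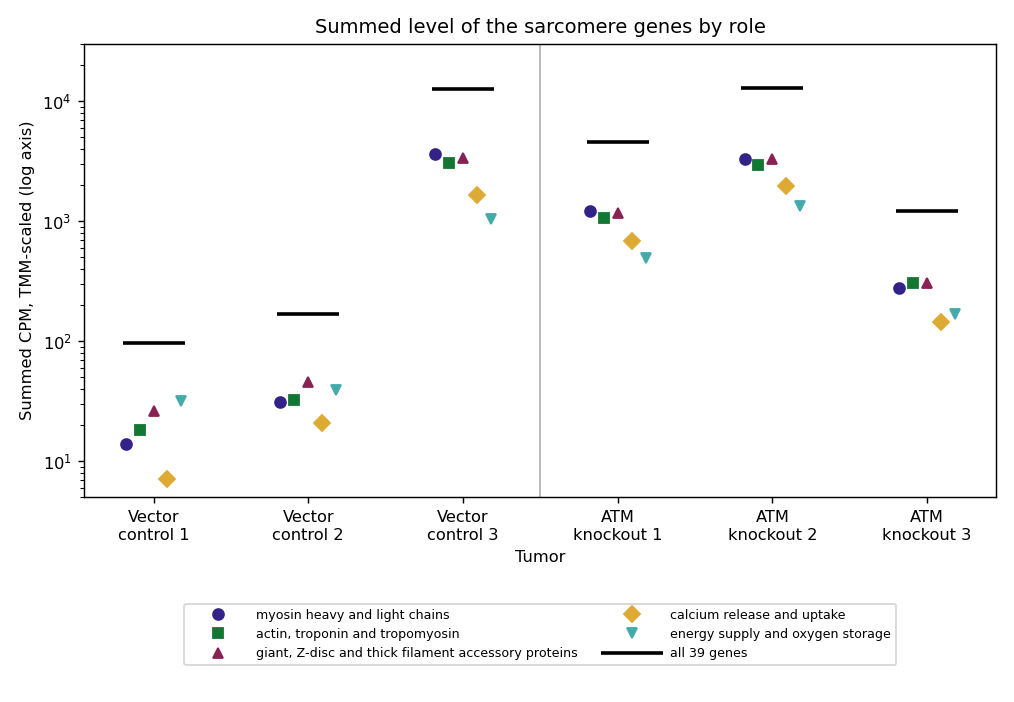
Summed TMM-scaled CPM of the sarcomere genes (log axis) in each of the 6 tumors, as points for the 5 role groups and as a black bar for all 39 genes. The bars span 97.0 to 12850 CPM, with vector control tumors 1 and 2 lowest and vector control tumor 3 beside ATM knockout tumor 2.

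The order of the tumors was shared by most genes. In 30 of the 39, vector control tumor 3 and ATM knockout tumor 2 were both above ATM knockout tumor 1, which was above ATM knockout tumor 3, which was above both other control tumors (an order noted after the values were seen). The remaining 9 were Myh2, Myh7, Myl2, Myl3, Tnnt1, Tnni1, Tnnc1, Mybpc1 and Mb, genes that are used in slow or oxidative fibers. Among the 36 genes that passed the filter on low counts, the highest tumor exceeded the lowest by a median of 212-fold, with extremes of 6.22-fold (Tnni1) and 1327-fold (Myh2). Of all 39 genes, 24 were highest in ATM knockout tumor 2, 14 in vector control tumor 3 and 1, Tnni1, in ATM knockout tumor 3.

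**Figure D2:**
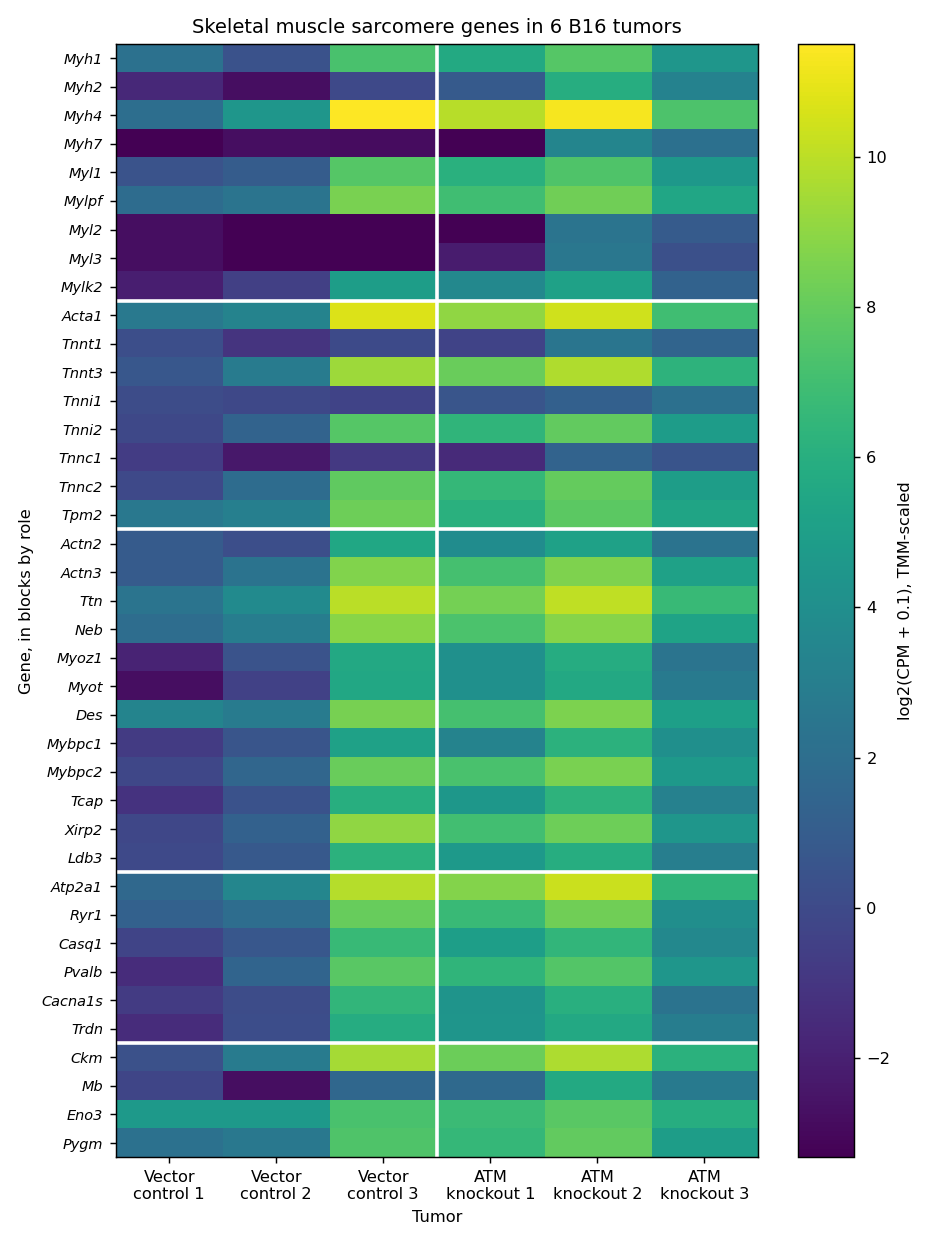
Levels of the 39 genes, as log2 of TMM-scaled CPM plus 0.1, in the 6 tumors (columns), with genes (rows) in blocks by role and white lines between blocks and groups. Most rows are dark in vector control tumors 1 and 2 and bright in vector control tumor 3 and ATM knockout tumor 2, while Myh7, Myl2 and Myl3 are above 1 CPM only in ATM knockout tumors 2 and 3.

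Myosin, the motor of the thick filament, was read mainly from the fast gene Myh4. In vector control tumors 1, 2 and 3 it was at 3.94, 21.99 and 2895 CPM, and in ATM knockout tumors 1, 2 and 3 at 956, 2501 and 167 CPM. The groups overlapped, since vector control tumor 3 held the highest value and the other control tumors the lowest. Its fitted log2 fold change was 0.31 ± 2.29 (SE; edgeR adjusted p = 0.961). Mylpf, the fast regulatory light chain, was at 3.67, 5.17 and 367 CPM in the control tumors and 123, 309 and 43.9 CPM in the knockout tumors. Myl1, the fast essential light chain, took the same order with 1.28, 1.88 and 197 CPM against 67.4, 169 and 23.9 CPM, and Mylk2, the kinase of the regulatory light chain, reached no more than 36.3 CPM. Myh1, the heavy chain of fast fibers between those of Myh2 and Myh4, was at 4.60, 1.23 and 155 CPM in control and 51.0, 196 and 22.2 CPM in knockout tumors.

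The thin filament followed the same order in its fast genes. Acta1 was at 6.24, 9.69 and 1669 CPM in the control tumors and 534, 1377 and 126 CPM in the knockout tumors, so that vector control tumor 3 again led. Per kilobase of exon it was the most abundant of the 39 genes in 4 tumors, with 1086 CPM per kb in vector control tumor 3 and 896 in ATM knockout tumor 2; in vector control tumors 1 and 2 the enolase gene Eno3 was first, with 14.4 and 15.0 CPM per kb. Acta1 had a fitted log2 fold change of 0.27 ± 2.17 (edgeR adjusted p = 0.963). Tnnt3, the fast troponin T that ties troponin to tropomyosin, ranged from 1.55 CPM in vector control tumor 1 to 841 CPM in ATM knockout tumor 2. Tnni2, the fast inhibitory subunit, ranged between the same tumors from 0.840 to 245 CPM, and Tnnc2, the fast calcium-binding subunit, from 0.885 to 255 CPM. Tpm2, the beta tropomyosin gene, ranged from 6.02 CPM in vector control tumor 1 to 306 CPM in vector control tumor 3.

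The scaffold of the sarcomere gave the same picture. Ttn, the spring that spans from Z-disc to M-line, was at 5.04, 13.4 and 1014 CPM in control and 337, 1070 and 103 CPM in knockout tumors. The richest tumors of the groups were thus close to each other for Ttn (1.06-fold). Its fitted log2 fold change was 0.55 ± 2.04 (edgeR adjusted p = 0.919). Neb, the ruler of the thin filament, and Actn3, the Z-disc crosslinker of fast fibers, peaked in vector control tumor 3 at 459 and 408 CPM. Des, the intermediate filament that links Z-discs, was the member of this role with the highest floor, 7.04 CPM in vector control tumor 2 against 386 CPM in ATM knockout tumor 2. Xirp2, an actin-binding repeat protein, was named after its values were seen because it alone had a negative fitted value (-0.25 ± 2.27, adjusted p = 0.968). It was at 0.796, 2.29 and 534 CPM in control and 130, 299.95 and 22.1 CPM in knockout tumors, and its sign turned to 0.25 without ATM knockout tumor 3 and to 6.63 without vector control tumor 3. Myoz1, Myot, Tcap and Ldb3 of the Z-disc stayed between 0.0442 and 75.1 CPM in all tumors and kept the common order. Actn2, the alpha-actinin of all fibers, reached 45.2 CPM in vector control tumor 3, and Mybpc2, the fast myosin-binding protein C, 367 CPM in ATM knockout tumor 2.

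Calcium handling was led by Atp2a1, the pump that returns calcium to the reticulum of fast fibers. It was at 3.14, 10.9 and 928 CPM in control and 428, 1264 and 82.3 CPM in knockout tumors, highest in ATM knockout tumor 2 and with the groups overlapping (log2 fold change 0.91 ± 2.14, edgeR adjusted p = 0.863). Ryr1, the calcium release channel, and Cacna1s, the voltage sensor that opens it, reached 316 CPM in ATM knockout tumor 2 and 87.8 CPM in vector control tumor 3. Pvalb, a calcium buffer of the fastest fibers, had 6, 58 and 5050 counts in vector control and 1983, 5144 and 632 in ATM knockout tumors. Casq1, which stores calcium in the reticulum, and Trdn, which anchors it to the release channel, peaked in vector control tumor 3 at 103 and 57.1 CPM. Casq1 came closest to the median profile of the 36 tested genes (root mean square distance 0.16 on the log2 scale over 6 tumors).

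Among the energy genes Ckm, the muscle creatine kinase, was at 1.19, 6.996 and 719 CPM in control and 291, 828 and 70.0 CPM in knockout tumors, a fitted log2 fold change of 0.71 ± 2.19 (edgeR adjusted p = 0.900). Eno3, the muscle enolase, stood out by its floor. It was at 25.1 and 26.2 CPM in the 2 tumors where Ckm was lowest, and its highest tumor exceeded its lowest by 8.45-fold. Pygm, the muscle glycogen phosphorylase, was at 4.60, 6.13 and 170 CPM against 92.5, 246 and 30.5 CPM.

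Slow and oxidative fiber genes departed from this order. Myh2, which passed the filter with the groups apart, was at 0.221, 0.0457 and 0.869 CPM in control and 1.76, 60.7 and 9.55 CPM in knockout tumors. Myh7, the slow heavy chain, was counted 0, 1 and 1 times in control and 0, 300 and 129 times in knockout tumors. Myl2, the slow regulatory light chain, had 1, 0 and 0 counts against 0, 140 and 53, and Myl3, the slow essential light chain, 1, 0 and 0 against 3, 162 and 33. Those 3 genes had too few counts in too few tumors to be tested. They were high in ATM knockout tumors 2 and 3 and near 0 in the other 4, ATM knockout tumor 1 among them, so 1 knockout tumor was as low as the controls. Mb, which encodes the oxygen store myoglobin, was at 0.752, 0.0457 and 2.98 CPM in control and 3.24, 51.0 and 6.84 CPM in knockout tumors.

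Vector control tumor 3 and ATM knockout tumor 2 had nearly the same sum (12737 and 12850 CPM) and differed in these genes. Of 36 genes with at least 10 counts in vector control tumor 3, 30 lay within 2-fold of each other in the 2 libraries and 6 were over 2-fold higher in ATM knockout tumor 2. The 6 were Myh2 (69.8-fold), Mb (17.1-fold), Tnnt1 (5.86-fold), Tnnc1 (5.50-fold), Tnni1 (3.15-fold) and Mybpc1 (2.05-fold). These are folds between 2 libraries with no replicate check.

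The heavy chain genes can be compared as shares within a tumor, free of the scaling between libraries. Myh4 made up 94.1%, 94.9% and 94.7% of the counts on Myh1, Myh2, Myh3, Myh4, Myh7 and Myh8 in vector control tumors 2 and 3 and ATM knockout tumor 1. In vector control tumor 1 it made up 37.2% of 239 counts. It made up 90.2% in ATM knockout tumor 2 (95% Wilson interval 90.0% to 90.4%) and 82.1% in ATM knockout tumor 3 (81.1% to 83.1%). Myh7 made up 2.17% (1.83% to 2.57%) in ATM knockout tumor 3 and 0.387% (0.346% to 0.434%) in ATM knockout tumor 2, but 0 of 24617 counts in ATM knockout tumor 1, which allows up to 0.0122%, and 0.00136% in vector control tumor 3. The 2 knockout tumors with slow myosin thus differed from the third by more than counting error, and intervals cover counting error only. Myh2 (chr11:67171027-67197517), Myh1 (chr11:67200052-67224575) and Myh4 (chr11:67238029-67260446; GENCODE M21, GRCm38) lie side by side and are alike in sequence. Reads that align to several places may be missing from the counts, so the split among them is uncertain. Another annotated gene overlaps 22 of the 39 genes on the opposite strand, Myh7 and Myh1 among them, and the use of strand in counting is not stated by the sources.

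In pairs of fast and slow genes ATM knockout tumor 3 was low beside vector control tumor 3 and the other knockout tumors. ATM knockout tumor 2 was low in some pairs and not in others. The fast regulatory light chain gene Mylpf took 98.4% of the counts of Mylpf and Myl2 in ATM knockout tumor 2 and 96.0% in ATM knockout tumor 3, and all counts in vector control tumors 2 and 3 and ATM knockout tumor 1. For troponin I the fast share was 99.6% in vector control tumor 3, 98.4% and 99.1% in ATM knockout tumors 1 and 2, and 86.9% (84.6% to 88.9%) in ATM knockout tumor 3. For troponin C it was 99.8%, 99.7%, 99.0% and 95.6% in the same tumors. Myosin-binding protein C, whose slow gene Mybpc1 is also used in fast fibers, had fast shares of 88.3%, 93.8%, 83.2% and 61.3%. For alpha-actinin, where Actn2 is the gene of all fibers and not a slow gene, the shares were 90.0%, 90.6%, 91.8% and 87.6%. ATM knockout tumor 2 was thus the highest in that pair. ATM knockout tumor 3 had the lowest fast share of these 4 tumors in all 8 pairs, though the alpha-actinin pair does not set fast against slow fibers. In vector control tumor 1 the fast share was 46.3% for troponin I (41 counts, 32.1% to 61.3%) and 62.5% for troponin C (32 counts, 45.3% to 77.1%), where slow genes had 22 and 12 counts against 17 and 11 in vector control tumor 3, whose muscle sum was 131 times as high.

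**Figure D3:**
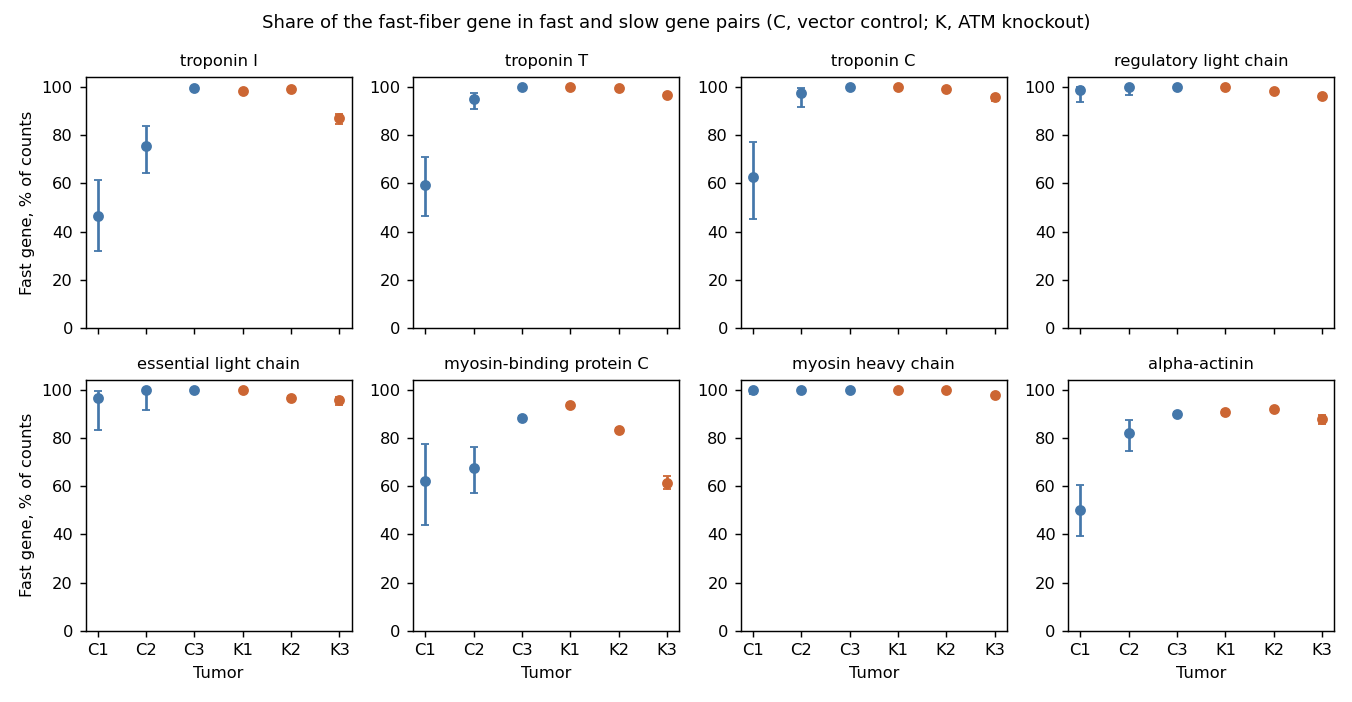
Percent of counts on the fast gene in 8 fast and slow gene pairs, 1 panel per pair, for vector control tumors (C1 to C3) and ATM knockout tumors (K1 to K3), with 95% Wilson intervals for counting error. Tumor K3 lies below C3, K1 and K2 in every panel, and the wide intervals of C1 and C2 come from 29 to 510 counts per pair. In the alpha-actinin panel the other gene, Actn2, is used in all fibers.

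None of the 36 tested genes passed in edgeR, where 4.96% of all genes did (2.21% higher and 2.75% lower in ATM knockout tumors). An unadjusted p below 0.05 was reached by 3 of them (Myh2, Tnni1 and Tnnt1), against 23.0% of all genes. DESeq2 called 2, Myh2 (adjusted p = 0.00177) and Tnni1 (0.0245), against 13.2% of all genes, and limma-voom called 0, against 4.42%. The groups did not overlap in 3 of the 36 genes, against 29.7% of all genes. Those 3 were Myh2, Tnni1 and Mb.

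The largest fitted fold was that of Myh2, 5.94 ± 1.72 on the log2 scale (SE; edgeR adjusted p = 0.124), from 0.379 ± 0.434 to 24.0 ± 32.0 CPM (SD, n = 3 per group). Without ATM knockout tumor 2 it was 3.85. Mb had 3.996 ± 1.59 (adjusted p = 0.220) and 1.97 without ATM knockout tumor 2. Tnni1, the slow inhibitory subunit of troponin, had the smallest adjusted p, 0.0906, with a log2 fold change of 1.68 ± 0.46. It was at 0.973, 0.823 and 0.704 CPM in control and 1.39, 2.22 and 4.38 CPM in knockout tumors, a narrow range that took no part in the rise of the fast genes in vector control tumor 3. Without a filter on low counts edgeR called it (adjusted p = 0.0421). Tnnt1, the slow troponin T, and Tnnc1, the slow troponin C, had 1.88 ± 0.77 (adjusted p = 0.216) and 1.92 ± 0.91 (adjusted p = 0.277). Tnnt1 was at 1.06, 0.366 and 0.911 CPM in control and 0.697, 5.33 and 2.63 CPM in knockout tumors, and Tnnc1 at 0.531, 0.0914 and 0.455 against 0.246, 2.51 and 1.37 CPM, so ATM knockout tumor 1 overlapped the controls in both. These 2 genes, Tnni1, Myh2 and Mb lay farthest from the median profile (1.83 to 2.70).

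The median log2 fold change of the 36 genes was 0.65, beside -0.0058 over all genes tested, and 35 of 36 were above 0 (Tpm2 and Cacna1s, both near 0, turned negative when the scaling left out the muscle genes, and Cacna1s also with DESeq2's size factors), beside 49.1% of all genes. By role the medians were 0.54 for 6 tested myosin genes, 0.86 for 8 actin, troponin and tropomyosin genes, 0.58 for 12 giant, Z-disc and accessory proteins, 0.42 for 6 calcium genes and 0.97 for 4 energy genes. The 36 values come from the same 6 tumors and share their muscle content, so they are not independent of each other. Without ATM knockout tumor 2 the median was -0.50, and 27 of the 36 genes changed sign. Without vector control tumor 3 it was 5.58. It was 0.098 without vector control tumor 1 and 0.11 without vector control tumor 2.

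**Figure D4:**
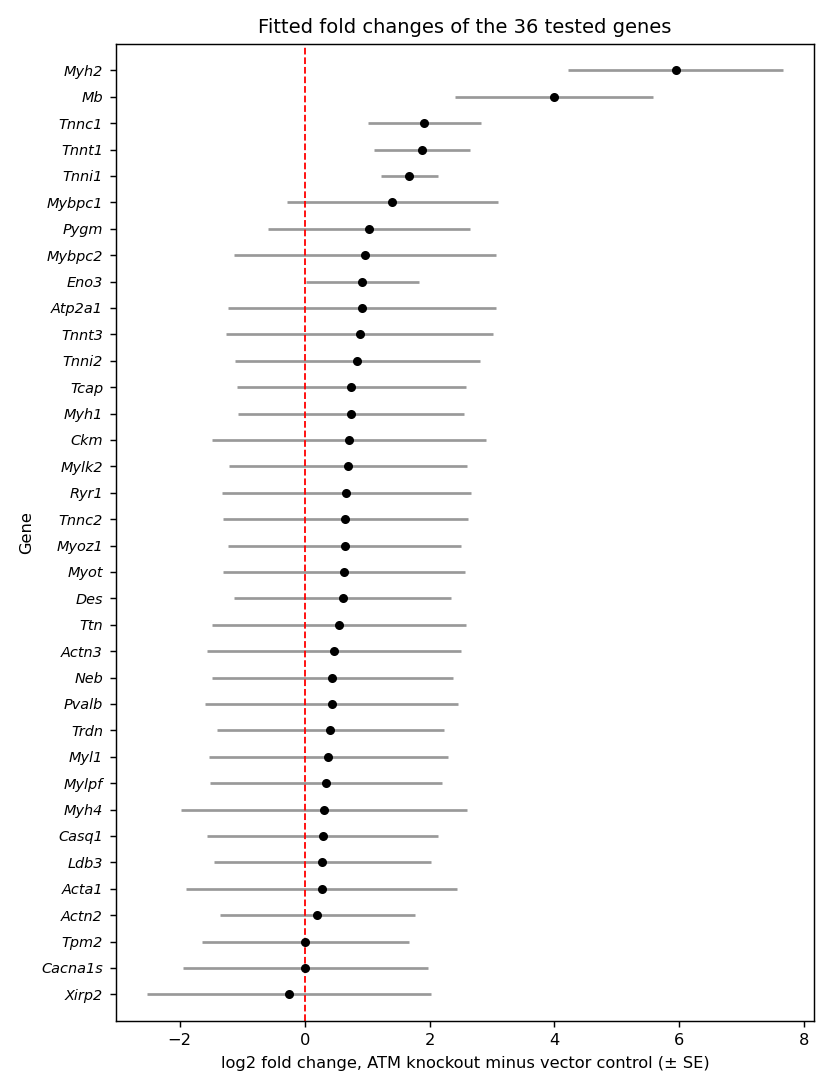
Fitted log2 fold changes (ATM knockout minus vector control, points) with standard errors (bars) for the 36 tested genes, sorted by value. The bars of most genes cross 0, and Myh2 (5.94) and Mb (3.996) lie farthest from it.

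Further muscle genes from 5 lists were read in the same fit, and 0 of their 89 tested members passed in edgeR, against 4.96% of all genes. An unadjusted p below 0.05 was reached by 1 of 39 sarcomere and cytoskeleton genes, 0 of 18 genes of excitation-contraction coupling, 1 of 17 genes of energy metabolism, 1 of 7 neuromuscular junction genes and 0 of 8 myogenic factors, against 23.0% of all genes. DESeq2 called 1 junction gene lower, against 13.2% of all genes in either direction. Their median log2 fold changes were 0.22, 0.60, 0.85, -0.04 and 0.11. A root mean square distance of at most 1 from the muscle profile was found for 30 of the 36 genes of the main list, 22, 9, 4, 0 and 1 of these 5 lists, and 50 of the 15499 tested genes outside all lists (0.323%). The most abundant members of the lists mostly did not follow the profile. Tpm1, the alpha tropomyosin gene, averaged 656 CPM with a distance of 2.47, and Cryab, a small heat shock protein gene, 187 CPM with a distance of 2.44. Flnc, the muscle filamin, averaged 148 CPM and lay at 0.72, with 12173 counts in vector control tumor 3 and 6298 in ATM knockout tumor 2. Asph, Gys1, Rapsn and Mef2d, the most abundant of the other lists, lay at 2.79, 2.92, 2.85 and 2.77.

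Among genes outside all lists with a mean of at least 2 CPM, those closest to the muscle profile were Eef1a2 (distance 0.28), the elongation factor of muscle and neurons, Rpl3l (0.32), a ribosomal protein of muscle, Ppp1r3a (0.34), the glycogen-targeting phosphatase subunit of muscle, and Kcnj11 (0.35), a subunit of the ATP-sensitive potassium channel. Next came 3425401B19Rik (0.42), Klhl31 (0.42), 2310002L09Rik (0.43) and Cap2 (0.43). Eef1a2 was at 0.221, 0.503 and 44.4 CPM in control and 19.4, 60.2 and 3.97 CPM in knockout tumors, and so was high where Ttn was high. With a prior count of 0.5 in place of 2, Eef1a2, Ppp1r3a, 3425401B19Rik, Klhl31 and Cap2 stayed among the 8 nearest, while Rpl3l moved to a distance of 0.79 (rank 24), Kcnj11 to 0.80 (rank 26) and 2310002L09Rik to 0.95 (rank 35). These distances describe 6 libraries and carry no test.

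Of the 72 tested members of marker lists of other cells, 0 came within a distance of 1 of the muscle profile. The distance depends on the size of the changes as well as on their order, so it cannot show that no pattern was shared. Sums of smooth muscle and pericyte, fibroblast, endothelial and leukocyte genes were also highest in vector control tumor 3. Those of heart muscle, adipocyte, keratinocyte, Schwann cell and melanocyte genes were highest in other tumors. Heart muscle genes summed to 18.0, 12.8 and 9.77 CPM in control and 7.96, 12.1 and 12.3 CPM in knockout tumors. Myl7 was at 0 counts in every tumor, Myh6 at 0 in all but ATM knockout tumor 2 (1 count) and Nppa at no more than 2 counts in any. The sums thus came from other genes of the heart list. Of 10 heart genes 3 were tested, and Tnnt2, which also occurs outside the heart, rose from 29 to 33 counts per control tumor to 59 to 87 per knockout tumor (log2 fold change 1.03 ± 0.21, edgeR adjusted p = 0.0469). Smooth muscle and pericyte genes summed to 145 to 337 CPM in control and 157 to 240 CPM in knockout tumors. Adipocyte genes summed to 40.6, 582 and 371 CPM in control tumors and 40.1, 55.5 and 117 CPM in the knockout tumors, high in vector control tumor 2 where muscle was low. Fibroblast genes summed to 295, 2223 and 3121 CPM in the control tumors and 1412 to 1593 CPM in the knockout tumors. Endothelial genes summed to 219 to 386 CPM, Schwann cell genes to 809 to 1185 CPM and leukocyte genes to 282 to 683 CPM over the 6 tumors. Melanocyte genes summed to 28847, 22119 and 20090 CPM in the control tumors and 20501 to 20840 CPM in the knockout tumors, and among them Dct, an enzyme of melanin synthesis, fell by 0.75 ± 0.15 on the log2 scale (edgeR adjusted p = 0.0434). Of the 10 melanocyte genes 7 had a fold change above 0, with a median of 0.12, and DESeq2 called 3 higher (Slc45a2, Gpr143 and Oca2) and 1 lower. Of 12 keratinocyte genes 5 were at 0 in every tumor and the sums were 4.73 to 6.60 CPM. The part of these cells in the muscle levels was not tested.

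**Figure D5:**
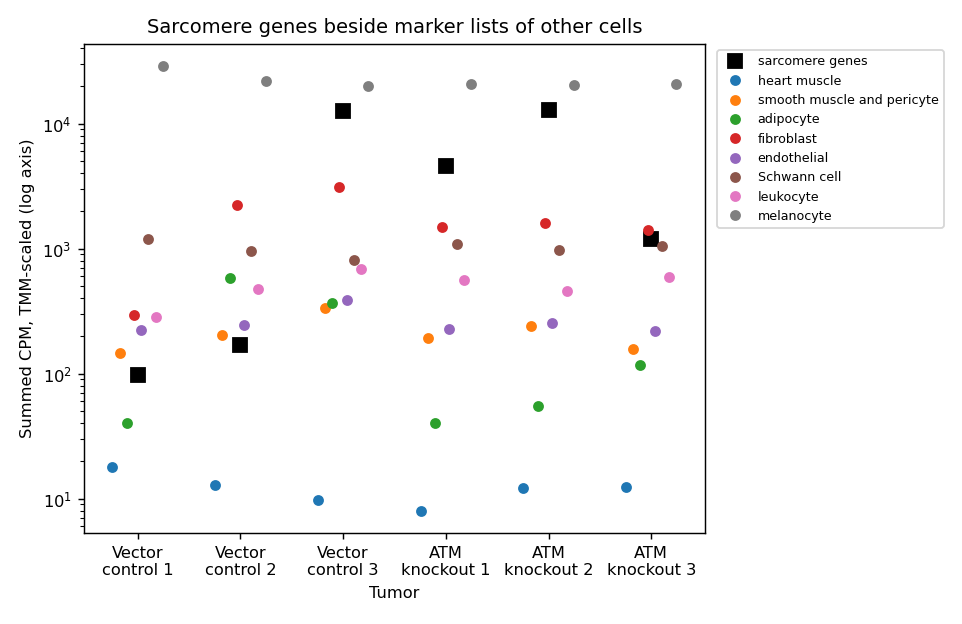
Summed TMM-scaled CPM (log axis) of the 39 sarcomere genes (black squares) and of 8 marker lists of other cells (colored points) in each tumor. The squares run from 97.0 to 12850 CPM, while the melanocyte points stay between 20090 and 28847 CPM.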

How the data were processed

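Gene counts of 6 tumor libraries were deposited by the authors as 1 file per tumor. The submitters' processing notes name Trim Galore, cutadapt, STAR, SAMtools and HTSeq and the builds GRCm38 and mm10. Their settings, versions, order and use of strand are not given in the sources used here. The counter's lines for reads without a gene (16.7% to 18.2% of each file's total for no feature, 1.21% to 1.38% for ambiguous reads) were left out. The line for reads aligned to several places was at 0. Gene identifiers were matched to GENCODE M21, and all 55536 were found.

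Genes were kept with edgeR 4.0.16 in R 4.3.3 (filterByExpr, minimum count 10, minimum total 15), scaled by TMM (factors 0.958 to 1.03) and tested by the quasi-likelihood F test with no covariate, at an adjusted p of 0.05 over 15696 genes. Scripts were tested on simulated data. Levels are TMM-scaled CPM computed here. The standard error of an edgeR fold was derived as the absolute log2 fold change over the square root of its F statistic. Distances use log2 CPM with a prior count of 2. Alternatives were DESeq2 1.42.0, limma 3.58.1 (voom), other scalings and filters, a replicate block and each tumor left out. Values were given for the most abundant members by role, the 5 members farthest from the median profile, up to 4 abundant genes per other list, and the 8 nearest unlisted genes (mean CPM 2 or more). The members and lists were chosen with earlier results of these data known.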

Additional observations from a re-analysis of the deposited data

How the results depend on the processing

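With 3 tumors per group, 1 tumor decided the direction of most muscle genes. Leaving out 1 tumor at a time moved the median log2 fold change of the tested muscle genes from -0.50 (without ATM knockout tumor 2) to 5.58 (without vector control tumor 3), and the log2 ratio of the group means of their summed CPM (0.52) from -0.57 to 5.55 without the same tumors. It turned the sign of 27 of the 36 genes without ATM knockout tumor 2, of 14 each without vector control tumor 1 or 2, of 1 each without vector control tumor 3 or ATM knockout tumor 3, and of 0 without ATM knockout tumor 1. The ranges were -0.81 to 6.56 for Myh4, -0.79 to 6.43 for Acta1, -0.67 to 5.79 for Ttn, -0.32 to 6.41 for Atp2a1, -0.45 to 6.62 for Ckm and -1.26 to 6.63 for Xirp2. Myh2, Mb, Tnnt1, Tnnc1 and Tnni1 stayed above 0 in each of these fits. So did Eno3, Mybpc1 and Pygm, with minima of 0.32, 0.039 and 0.0098, all without ATM knockout tumor 2. Over all genes, 347 were called higher and 431 lower. Leaving out 1 tumor gave 0 (without ATM knockout tumor 1) to 587 (without vector control tumor 1) higher and 2 to 622 lower without the same tumors. DESeq2 called 920 higher and 1150 lower. Without a filter on low counts edgeR called 1 muscle gene higher, and DESeq2 called 2. With limma-voom the median was 2.89 and Xirp2 was at 3.12. With the muscle level of each tumor as a covariate and the muscle genes left out of the calls, 386 higher and 492 lower calls became 33 and 38. The cause of these changes was not tested. Per kilobase of exon, 22 of the 48 fast shares were scored as beyond their counting interval. These include the regulatory light chain in ATM knockout tumor 1, which was at 100% both ways and did not move. The largest rise, 21.2 percentage points, was that of troponin I in vector control tumor 1 (46.3% to 67.5%), which rests on 41 counts.

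With the replicate number as a block, 0 genes were called higher and 0 lower, the median was 3.75 and Xirp2 was at 5.10. Deviations from the group mean, over all tested genes, correlated at 0.04, -0.27 and -0.42 between same-numbered tumors. With 3 tumors per group such correlations cannot decide whether the numbers pair the tumors.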

Other observations

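In vector control tumor 1, which had the fewest muscle counts, the heavy chain counts were spread more evenly over the genes than in the other tumors. Of 239 counts on 6 heavy chain genes, Myh1 took 43.5% (95% Wilson interval 37.4% to 49.9%) and Myh4 37.2% (31.4% to 43.5%). Myh3, the embryonic heavy chain, took 10.5% (7.19% to 15.0%) and Myh8, the perinatal one, 6.69%. In the other 5 tumors Myh3 took no more than 0.196%. Raw counts of Myh3 were 25, 1 and 10 in the control and 8, 76 and 8 in the knockout tumors, and those of Myh8 were 16, 0 and 13 against 6, 53 and 0.

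Some regulators of muscle were counted at low levels, and these genes were singled out after their values were seen. Myf6, a myogenic factor of mature fibers, had 2, 5 and 339 counts in vector control and 102, 320 and 42 in ATM knockout tumors. Myog, which drives differentiation, had 7, 0 and 41 against 7, 66 and 5, and Myod1, which commits cells to muscle, 0, 1 and 34 against 10, 34 and 2. Pax7, the marker of muscle stem cells, had 0, 0 and 4 against 1, 3 and 0. Csrp3, a Z-disc protein, had 3, 0 and 501 counts against 56, 128 and 51, and was thus highest in vector control tumor 3.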
